A study of Rattus norvegicus with 18 samples.

Results

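Collagen chain genes are the genes that encode the polypeptide chains of collagens, and the set described here holds every array feature whose single gene symbol is Col, digits, a, digits. The rule found 27 features for 25 genes, of 28328 features and 14499 distinct symbols on the array, and where a gene had several features (Col6a4, with 3) the brightest by mean level stands for it. RNA came from primary cultures of cells isolated from the inner medulla of the rat kidney and labelled as collecting duct cells. No age, sex or strain of the animals is used here, and the labels leave it unsaid whether the 3 arrays of a group are separate animals or cultures. The p-values therefore rest on array-to-array spread that may be only technical.

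The 18 arrays form 6 groups of 3. Cells were grown at 300 mosmol/kg (300 culture) or at 600 mosmol/kg (600 culture). Cells of the 300 culture were raised to 600 mosmol/kg for 24 h without the drug (600 challenge) or with 5 µM cyclosporin A, a calcineurin inhibitor that works bound to cyclophilins (600 challenge with cyclosporin A). Cells of the 600 culture were raised to 900 mosmol/kg for 24 h (900 challenge), again also with 5 µM cyclosporin A. No group was moved to fresh medium of the same osmolality, so a rise in osmolality and the move with its extra 24 h cannot be told apart. The base of the deposited logarithms is not stated, so levels and differences are given in log units, and a fold is given for base 2 and for the natural logarithm.

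Collagen chains wind into a triple helix in the endoplasmic reticulum after hydroxylation of their prolines and lysines, and are then secreted, trimmed and cross-linked. Fibrillar collagens (types I, II, III, V and XI) build the cables of connective tissue and are made mainly by fibroblasts and related cells, whereas type IV collagens build the sheet of the basement membrane on which epithelia sit. In the kidney the α1 and α2 chains of type IV occur in nearly all basement membranes, and the α3, α4 and α5 chains form another network in the glomerulus and in parts of the tubule, whose loss causes Alport syndrome.

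Before the collagen values, the cell type named in the labels was compared with marker genes. The principal cell list (14 of 14 genes measured) summed to 64.4 to 65.2 log units per array in the 300 culture and to 82.9 to 85.5 in the 600 culture. That list also holds genes of epithelia in general, such as Epcam and Cdh1, so its sum is not a measure of principal cells alone. Epcam, an epithelial adhesion protein, read 7.961 to 7.985 in the 300 culture and 8.096 to 8.179 in the 600 culture. Aqp2, the vasopressin-regulated water channel of principal cells, read only 1.493 to 1.723 in the 300 culture, under the lower quartile of all arrays (2.476 to 2.696), against 6.324 to 6.838 in the 600 culture. Markers of other cells were also read in these cultures: Acta2, the smooth muscle actin also found in myofibroblasts, lay at 8.538 to 8.552 in the 300 culture, and Postn, a fibroblast matrix protein, at 6.568 to 6.593. Epcam was thus well above the lower quartile in the 300 culture while Aqp2 was under it, and the RNA also held transcripts typical of stromal cells. Epcam, Aqp2, Acta2 and Postn are single members of longer lists.

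The promoter windows of 6 members follow, chosen because the results turn on these genes. Each runs from 250 bases before to 50 bases after the annotated start, in transcription direction, from RefSeq on build GRCr8. All 25 members matched a RefSeq gene, and 20 have a window, while Col1a1, Col2a1, Col3a1, Col12a1 and Col14a1 have none here. Col4a3 (chr9:91323740-91324039, plus strand) and Col4a4 (chr9:91323528-91323827, minus strand) lie head to head, with start sites 413 bases apart and windows that share 88 bases (chr9:91323740-91323827). Capitals mark that shared stretch, which the Col4a4 window holds as the reverse complement.
Col4a3: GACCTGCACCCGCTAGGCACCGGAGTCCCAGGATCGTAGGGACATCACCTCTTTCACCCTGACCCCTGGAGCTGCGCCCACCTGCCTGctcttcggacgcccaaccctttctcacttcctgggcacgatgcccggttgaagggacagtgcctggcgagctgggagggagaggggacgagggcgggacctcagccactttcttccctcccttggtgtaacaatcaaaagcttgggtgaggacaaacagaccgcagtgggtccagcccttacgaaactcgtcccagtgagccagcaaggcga
Col4a4: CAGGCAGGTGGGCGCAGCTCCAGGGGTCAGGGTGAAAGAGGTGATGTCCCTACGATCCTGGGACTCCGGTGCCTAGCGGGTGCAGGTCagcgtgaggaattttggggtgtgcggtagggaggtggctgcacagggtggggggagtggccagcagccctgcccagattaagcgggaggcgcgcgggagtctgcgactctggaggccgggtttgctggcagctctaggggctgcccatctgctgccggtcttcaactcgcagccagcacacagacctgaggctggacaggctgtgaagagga

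In the other 4 windows capitals mark matches to any of 4 short motifs on either strand: CCAAT (the CCAAT box, ATTGG on the other strand), TATAAA (the TATA box), GGGCGG (the GC box, CCGCCC on the other strand) and TGGAAA (the core shared by sites of the NFAT family, TTTCCA on the other strand). The windows are those of Col4a1 (chr16:84885347-84885646), the common type IV chain, Col1a2 (chr4:33518307-33518606), the α2 chain of type I, Col8a1 (chr11:56246532-56246831), the member with the largest fall, and Col11a1 (chr2:204508886-204509185), the member whose steps differed most, all on the plus strand. Col4a1 also lies head to head, with Col4a2, which is not a member. Their start sites are 77 bases apart and their windows share 176 bases (chr16:84885471-84885646).
Col4a1: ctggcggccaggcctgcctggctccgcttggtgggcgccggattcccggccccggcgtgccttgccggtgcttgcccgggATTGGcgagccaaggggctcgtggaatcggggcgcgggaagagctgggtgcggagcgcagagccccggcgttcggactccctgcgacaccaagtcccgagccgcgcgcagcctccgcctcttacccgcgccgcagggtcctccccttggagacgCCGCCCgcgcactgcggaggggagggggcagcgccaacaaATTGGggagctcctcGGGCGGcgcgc
Col1a2: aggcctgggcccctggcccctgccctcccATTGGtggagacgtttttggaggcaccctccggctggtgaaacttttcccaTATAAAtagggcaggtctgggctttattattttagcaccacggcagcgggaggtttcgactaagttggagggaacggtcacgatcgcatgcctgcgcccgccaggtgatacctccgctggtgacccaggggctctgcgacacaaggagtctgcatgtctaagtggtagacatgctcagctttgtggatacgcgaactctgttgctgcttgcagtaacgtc
Col8a1: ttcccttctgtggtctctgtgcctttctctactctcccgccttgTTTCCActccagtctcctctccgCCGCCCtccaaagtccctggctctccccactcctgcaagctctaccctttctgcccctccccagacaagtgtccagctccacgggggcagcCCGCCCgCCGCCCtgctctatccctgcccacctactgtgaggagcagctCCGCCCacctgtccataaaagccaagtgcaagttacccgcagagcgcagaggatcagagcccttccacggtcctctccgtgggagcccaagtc
Col11a1: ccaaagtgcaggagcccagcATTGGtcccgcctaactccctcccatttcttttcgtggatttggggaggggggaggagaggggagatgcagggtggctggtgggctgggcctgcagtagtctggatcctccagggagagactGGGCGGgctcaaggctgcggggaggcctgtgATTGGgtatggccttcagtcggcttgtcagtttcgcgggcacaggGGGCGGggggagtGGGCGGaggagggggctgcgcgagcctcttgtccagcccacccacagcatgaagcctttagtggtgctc

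CCAAT was present in 7 of the 20 member windows and in 37.5% of all 33469 windows. TATAAA was in 4 of the 20 and in 14.2% of all, GGGCGG in 11 of the 20 and in 33.1% of all, and TGGAAA in 4 of the 20 and in 22.7% of all. Col8a1 held 4 GC boxes and 1 TGGAAA, Col11a1 held 3 GC boxes and 2 CCAAT boxes, and Col4a1 held 2 of each of these. Col1a2 held 1 CCAAT box and 1 TATA box. Col4a3 had 1 GC box and Col4a4 none of the 4 motifs. These are matches of letters only, and a window without a match says nothing about the factor.

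Of the 25 members, 13 lay above the array's lower quartile on all 18 arrays, 10 on some and 2 (Col13a1 and Col27a1) on none. The collagen values ran from 1.55 for Col14a1 to 7.906 for Col11a1, and none was 0. Levels of different genes come from different probes and are not compared. Fibrillar collagens had 10 of 11 listed genes measured, type IV 3 of 6, types VIII and X 2 of 3, types VI, VII and XXVIII 2 of 8, fibril-associated collagens 5 of 10 and transmembrane collagens 3 of 4, and the remaining chains were not analysed here.

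In both osmotic steps the fibrillar genes Col1a1, Col1a2, Col3a1, Col5a1, Col5a2 and Col5a3 fell together with Col8a1, Col7a1 and Col12a1, and the type IV genes Col4a3 and Col4a4 rose. In the 600 challenge 9 of 25 members were lower and 2 higher than in the 300 culture (limma, adjusted p under 0.05), where 8.07% of all 28328 features were lower and 6.36% higher. The members' median difference was -0.1 log units (-0.02 and -0.22 without array 2 or 3 of the 300 culture, -0.04, -0.15 and -0.26 without array 1, 2 or 3 of the 600 challenge, -0.7 with dim features left out), against 0.017 over all features. In the 900 challenge 11 members were lower and 3 higher than in the 600 culture, where 11% of all features were lower and 6.43% higher, and the median differences were -0.12 (-0.27 and -0.28 without array 2 or 3 of the 600 culture, -0.19 without array 2 of the 900 challenge, -0.61 with dim features left out) and -0.013. Among fibrillar genes alone the counts were 6 lower of 10 with a median of -0.78 in the first step and 8 lower of 10 with a median of -0.66 in the second, and none was higher in either. In such bulk samples fewer cells of a type and less RNA per cell cannot be told apart.

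Markers of stromal and blood cells moved in the same comparisons. Their counts stand against 8.07% of all features lower and 6.36% higher in the first step, and 11% and 6.43% in the second. Of 13 fibroblast markers other than collagens, 8 fell and 1 rose in each step. Their summed level was 60.8 to 61.1 log units per array for the 300 culture, 53.5 to 54.6 in the 600 challenge, 55.4 to 55.9 in the 600 culture and 50.8 to 51.8 in the 900 challenge. Postn fell by 1.45 log units in the first step and by 0.74 in the second, whereas Lum and Pdgfra passed the test in neither. Of 7 smooth muscle markers 6 fell in the first step and 7 in the second, with sums of 44.5 to 44.8 for the 300 culture, 35.7 to 36.6 in the 600 challenge, 41.7 to 42.6 in the 600 culture and 33.2 to 34.9 in the 900 challenge. Of 11 leukocyte markers 10 fell in the first step and 11 in the second, with sums of 65.3 to 66.2, 49.9 to 51.8, 51.7 to 53.3 and 38.6 to 38.7 in the same order of groups. Endothelial markers (9 of 10 measured) had 6 that fell and 1 that rose in the first step and 5 that fell and 2 that rose in the second. Of 14 principal cell markers 4 rose and 3 fell in the first step and 7 rose and 3 fell in the second, with sums of 66.2 to 66.6 in the 600 challenge and 86.9 to 87.9 in the 900 challenge. No marker value was 0 in any group, and the part of these cells in the collagen differences was not tested.

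**Figure D1:**
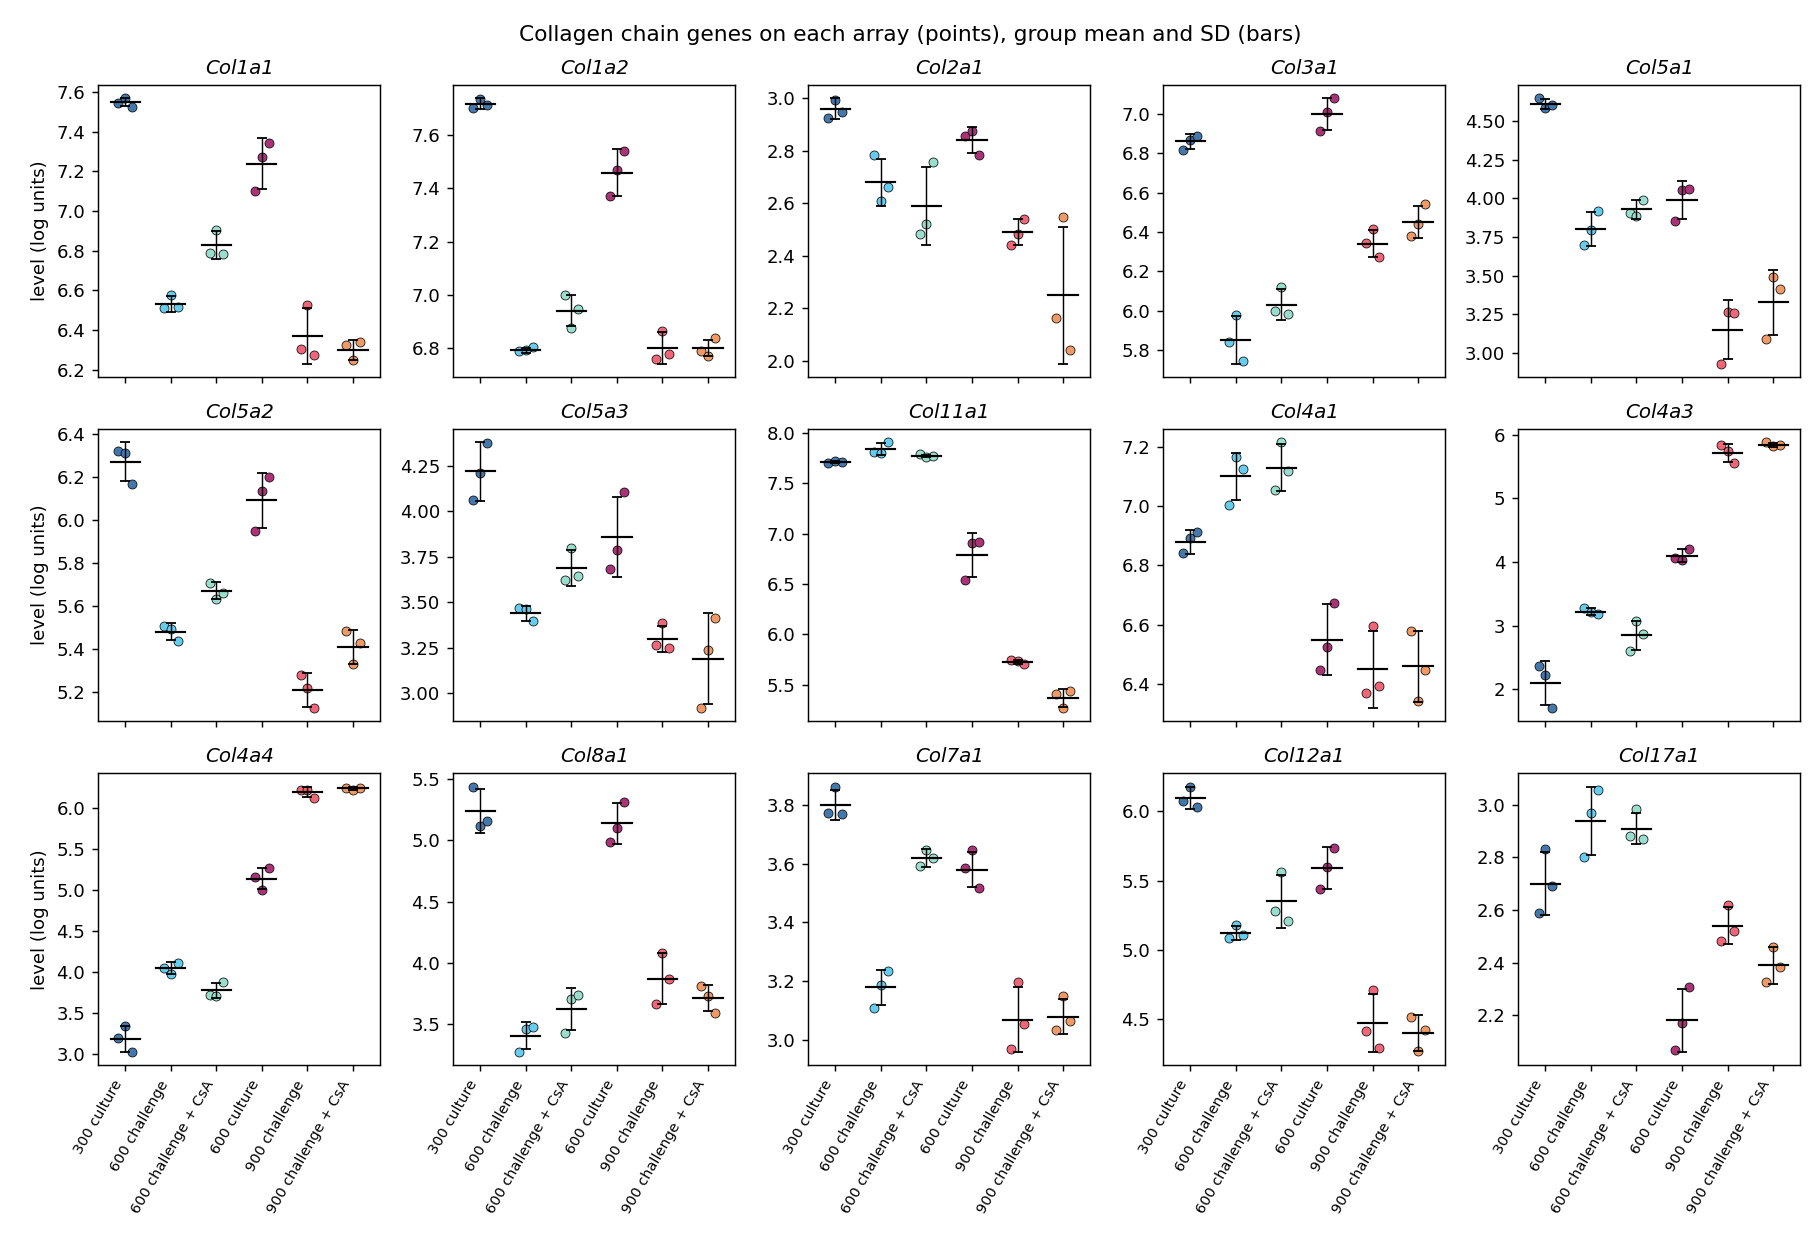
Level (log units, base not stated; each panel has its own axis, which does not start at 0) of 15 collagen chain genes on each of the 18 arrays, with the mean and SD of each group of 3 as bars. Most fibrillar genes are highest in the 2 cultures and lower in the challenges, Col4a3 and Col4a4 climb from the 300 culture to the 900 groups, and Col11a1 keeps its level in the 600 challenge and falls in the 600 culture and at 900.

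Type I collagen, the main protein of connective tissue fibrils, is built from the chains of Col1a1 and Col1a2. Col1a1 read 7.545, 7.57 and 7.524 for the 300 culture, 6.51, 6.574 and 6.515 in the 600 challenge, and 6.79, 6.906 and 6.782 in the 600 challenge with cyclosporin A. In the arm grown at 600 it read 7.1, 7.272 and 7.344 before the challenge, 6.304, 6.525 and 6.273 in the 900 challenge, and 6.326, 6.248 and 6.341 in the 900 challenge with cyclosporin A. Both cultures lay above every challenged array, and the 300 culture lay above the 600 culture. Col1a1 differed by -1.01 ± 0.07 (SE, n = 3 against 3) between the 600 challenge and the 300 culture, 2.02-fold lower with base 2 and 2.75-fold with the natural logarithm (limma, adjusted p = 2.52e-07). The 900 challenge differed from the 600 culture by -0.87 ± 0.07 (adjusted p = 1.12e-06).

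Col1a2 read 7.704, 7.738 and 7.714 for the 300 culture, 6.787, 6.792 and 6.802 in the 600 challenge, and 6.997, 6.874 and 6.946 with cyclosporin A. Grown at 600, it read 7.371, 7.471 and 7.541 before the challenge, 6.757, 6.862 and 6.775 in the 900 challenge, and 6.786, 6.769 and 6.835 with the drug. Its order of groups was that of Col1a1 for the cultures, and the 600 and 900 challenges overlapped. The steps were -0.92 ± 0.05 (adjusted p = 2.41e-08) and -0.66 ± 0.05 (adjusted p = 5.49e-07). The step from 600 to 900 was smaller by 0.26 ± 0.07 (limma contrast between the steps, adjusted p = 0.0419), and this call was lost in 10 of 12 fits without 1 array, with adjusted p between 0.0276 and 0.0969.

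Type III collagen, which joins type I in distensible tissues, is made of Col3a1 chains alone. Col3a1 read 6.815, 6.865 and 6.888 for the 300 culture, 5.842, 5.975 and 5.742 in the 600 challenge, and 5.995, 6.122 and 5.982 with cyclosporin A. The 600 culture read 6.912, 7.012 and 7.08, the 900 challenge 6.345, 6.415 and 6.271, and the 900 challenge with the drug 6.377, 6.438 and 6.54. Col3a1 was not lower in the 600 culture, whose arrays lay above those of the 300 culture without passing the test (difference 0.15 ± 0.07, 95% interval -0.01 to 0.3, adjusted p = 0.209), and all 6 arrays at 900 lay above all 6 arrays of the 600 challenges. It fell by 1.0 ± 0.07 in the first step (adjusted p = 1.99e-07) and by 0.66 ± 0.07 in the second (adjusted p = 1.14e-05). The steps differed by 0.35 ± 0.1 (adjusted p = 0.0496), a call lost in 9 of 12 fits without 1 array, with adjusted p between 0.0261 and 0.117.

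Type V chains start and limit the width of type I fibrils. Col5a1 read 4.648, 4.582 and 4.605 for the 300 culture, 3.699, 3.793 and 3.916 in the 600 challenge, and 3.905, 3.884 and 3.991 with cyclosporin A. It was 3.852, 4.052 and 4.058 for the 600 culture, 2.932, 3.266 and 3.259 in the 900 challenge, and 3.094, 3.489 and 3.416 with the drug. The 300 culture stood alone at the top, the 600 culture overlapped both 600 challenge groups, and the 900 groups were lowest. Col5a1 fell by 0.81 ± 0.11 and by 0.83 ± 0.11 in the 2 steps (adjusted p = 0.000109 and 6.7e-05).

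Col5a2 was 6.318, 6.312 and 6.167 for the 300 culture, 5.509, 5.492 and 5.439 in the 600 challenge, and 5.708, 5.63 and 5.66 with cyclosporin A. In the 600 culture it was 5.95, 6.134 and 6.2, in the 900 challenge 5.279, 5.218 and 5.127, and with the drug 5.484, 5.328 and 5.427. The cultures overlapped each other and lay above all challenges, and each drug group lay above its challenge without the drug on all arrays. The step differences were -0.79 ± 0.07 (adjusted p = 2.19e-06) and -0.89 ± 0.07 (adjusted p = 6.33e-07).

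Col5a3 read 4.062, 4.211 and 4.375 for the 300 culture, 3.471, 3.466 and 3.397 in the 600 challenge, and 3.621, 3.802 and 3.644 with cyclosporin A. At 600 it read 3.686, 3.788 and 4.108 in culture, and at 900 it read 3.267, 3.385 and 3.247 without and 2.921, 3.238 and 3.416 with the drug. Both steps separated the groups, with differences of -0.77 ± 0.13 (adjusted p = 0.000602) and -0.56 ± 0.13 (adjusted p = 0.00548), and the 2 cultures overlapped.

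Col2a1, the chain of cartilage type II collagen, was near the lower quartile and above it on 10 of 18 arrays. Its values were 2.924, 2.995 and 2.947 for the 300 culture, 2.785, 2.607 and 2.663 in the 600 challenge and 2.484, 2.522 and 2.759 with the drug. They were 2.858, 2.874 and 2.783 for the 600 culture, 2.441, 2.482 and 2.54 in the 900 challenge and 2.163, 2.549 and 2.043 with the drug. The first step gave -0.27 ± 0.11 (adjusted p = 0.115). The second gave -0.35 ± 0.11 (adjusted p = 0.0337), and that call was lost in all 6 fits without 1 array (adjusted p 0.0558 to 0.101). The fibrillar genes Col11a2 and Col27a1 were at the low end too, between 2.083 and 2.905 on all arrays, and passed the test in none of the 11 comparisons.

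Col11a1, a chain of type XI collagen best known from cartilage, moved apart from the other fibrillar genes. It read 7.702, 7.724 and 7.708 for the 300 culture, 7.812, 7.799 and 7.906 in the 600 challenge, and 7.788, 7.76 and 7.768 with cyclosporin A. It read 6.54, 6.905 and 6.92 for the 600 culture, 5.743, 5.738 and 5.71 in the 900 challenge, and 5.407, 5.271 and 5.436 in the 900 challenge with the drug. No 2 of the 6 groups overlapped, and the 600 culture lay far below all groups that had started from the 300 culture. The first step was 0.13 ± 0.08 (95% interval -0.05 to 0.3, adjusted p = 0.364) and the second was -1.06 ± 0.08 (adjusted p = 5.32e-07), 2.08-fold lower with base 2 and 2.88-fold with the natural logarithm. The contrast between the steps was -1.19 ± 0.12 (limma, adjusted p = 2.48e-05). Of the 25 members, Col1a2, Col3a1 and Col11a1 differed between the steps, where 7.58% of all features did (3.52% upward and 4.06% downward), and Col11a1 was the one whose second step was the lower.

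Col4a3, of type IV, rose where the type I, III and V genes fell. It read 2.362, 2.219 and 1.71 for the 300 culture, 3.277, 3.208 and 3.19 in the 600 challenge, and 2.608, 3.069 and 2.873 with cyclosporin A. It read 4.061, 4.03 and 4.21 for the 600 culture, 5.829, 5.746 and 5.56 in the 900 challenge and 5.877, 5.82 and 5.83 with the drug. The groups were in one order with no overlap except between the 2 groups at 900, and the 300 culture values lay under the lower quartile of the arrays. Col4a3 rose by 1.13 ± 0.14 in the first step (adjusted p = 6.72e-05) and by 1.61 ± 0.14 in the second (adjusted p = 1.98e-06). The 600 culture was 2.0 ± 0.14 higher than the 300 culture, 4.01-fold with base 2 and 7.41-fold with the natural logarithm (adjusted p = 9.65e-08), a fold taken against values under the lower quartile.

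Col4a4, which shares the promoter stretch printed above with Col4a3, read 3.203, 3.343 and 3.031 for the 300 culture, 4.051, 3.978 and 4.114 in the 600 challenge, and 3.729, 3.716 and 3.886 with cyclosporin A. The 600 culture read 5.165, 5.002 and 5.268, the 900 challenge 6.224, 6.218 and 6.115, and the 900 challenge with the drug 6.248, 6.214 and 6.245. Its order of groups was the same as that of Col4a3, again with overlap only between the groups at 900, and it was above the lower quartile on all arrays. Col4a4 rose by 0.86 ± 0.08 and 1.04 ± 0.08 in the 2 steps (adjusted p = 5.25e-06 and 7.1e-07) and was 1.95 ± 0.08 higher in the 600 than in the 300 culture (adjusted p = 3.62e-10).

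Col4a1, the chain of the basement membrane network found in most tissues, did not share that pattern. It read 6.841, 6.891 and 6.914 for the 300 culture, 7.005, 7.165 and 7.125 in the 600 challenge, and 7.054, 7.215 and 7.118 with cyclosporin A. The 600 culture read 6.447, 6.526 and 6.674, the 900 challenge 6.369, 6.597 and 6.392, and the 900 challenge with the drug 6.579, 6.342 and 6.448. The groups started from the 300 culture were all above the groups started from the 600 culture. Its steps were 0.22 ± 0.08 (adjusted p = 0.0997) and -0.1 ± 0.08 (95% interval -0.27 to 0.08, adjusted p = 0.517), and the 600 culture was 0.33 ± 0.08 below the 300 culture (difference -0.33, adjusted p = 0.00986), a call lost without array 1 of the 600 culture (adjusted p = 0.0517).

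Col8a1, a short-chain collagen made by vascular and mesenchymal cells, had the largest fall of the 25 members in both steps. It read 5.441, 5.115 and 5.162 for the 300 culture, 3.269, 3.454 and 3.475 in the 600 challenge, and 3.424, 3.704 and 3.734 with cyclosporin A. The 600 culture read 4.99, 5.103 and 5.317, the 900 challenge 3.662, 4.078 and 3.866, and the 900 challenge with the drug 3.806, 3.727 and 3.587. The 2 cultures overlapped, and every challenged array lay over 0.5 log units below both. The first step was -1.84 ± 0.13, 3.58-fold lower with base 2 and 6.3-fold with the natural logarithm (adjusted p = 1.65e-07), and the second was -1.27 ± 0.13 (adjusted p = 6.33e-06). Between the cultures the difference was -0.1 ± 0.13 (95% interval -0.37 to 0.17, adjusted p = 0.698). Col10a1, of the same class, stayed between 2.213 and 3.142 and passed no test.

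Col12a1 encodes a fibril-associated collagen that sits on type I fibrils. It read 6.075, 6.179 and 6.031 for the 300 culture, 5.083, 5.178 and 5.108 in the 600 challenge, and 5.281, 5.56 and 5.205 with cyclosporin A. The 600 culture read 5.439, 5.599 and 5.735, the 900 challenge 4.409, 4.707 and 4.29, and the 900 challenge with the drug 4.514, 4.265 and 4.418. The 300 culture was highest and the 900 groups lowest, with no array of either step overlapping its culture. Col12a1 fell by 0.97 ± 0.11 and 1.12 ± 0.11 (adjusted p = 3.51e-05 and 7.6e-06). The other fibril-associated genes, Col9a1, Col9a2, Col14a1 and Col16a1, ran from 1.55 to 3.126 and passed the test in neither step.

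Col7a1, which forms the anchoring fibrils that tie a basement membrane to the tissue below, read 3.772, 3.862 and 3.768 for the 300 culture, 3.11, 3.186 and 3.235 in the 600 challenge, and 3.592, 3.645 and 3.62 with cyclosporin A. It read 3.584, 3.645 and 3.516 for the 600 culture, 2.971, 3.196 and 3.054 in the 900 challenge, and 3.035, 3.149 and 3.066 with the drug. In the 600 challenge with cyclosporin A it lay near the level of the 600 culture, above all arrays of the challenge without the drug. The steps without the drug were -0.62 ± 0.06 (adjusted p = 6.51e-06) and -0.51 ± 0.06 (adjusted p = 3.78e-05).

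Col17a1, a transmembrane collagen of the hemidesmosome, which fixes epithelial cells to the basement membrane, was above the lower quartile on 10 arrays. It read 2.587, 2.831 and 2.691 for the 300 culture, 2.801, 2.968 and 3.055 in the 600 challenge, and 2.883, 2.986 and 2.872 with cyclosporin A. The 600 culture read 2.067, 2.169 and 2.309, the 900 challenge 2.482, 2.62 and 2.521, and the 900 challenge with the drug 2.328, 2.458 and 2.385. The 600 culture was lowest and each step pointed upward, though the 300 culture and the 600 challenge overlapped. The first step was 0.24 ± 0.08 (adjusted p = 0.0721) and the second 0.36 ± 0.08 (adjusted p = 0.00665, and 0.0503 in a fit of these 2 groups alone). Col13a1 and Col23a1, also transmembrane, lay between 1.757 and 2.922 and passed no test.

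**Figure D2:**
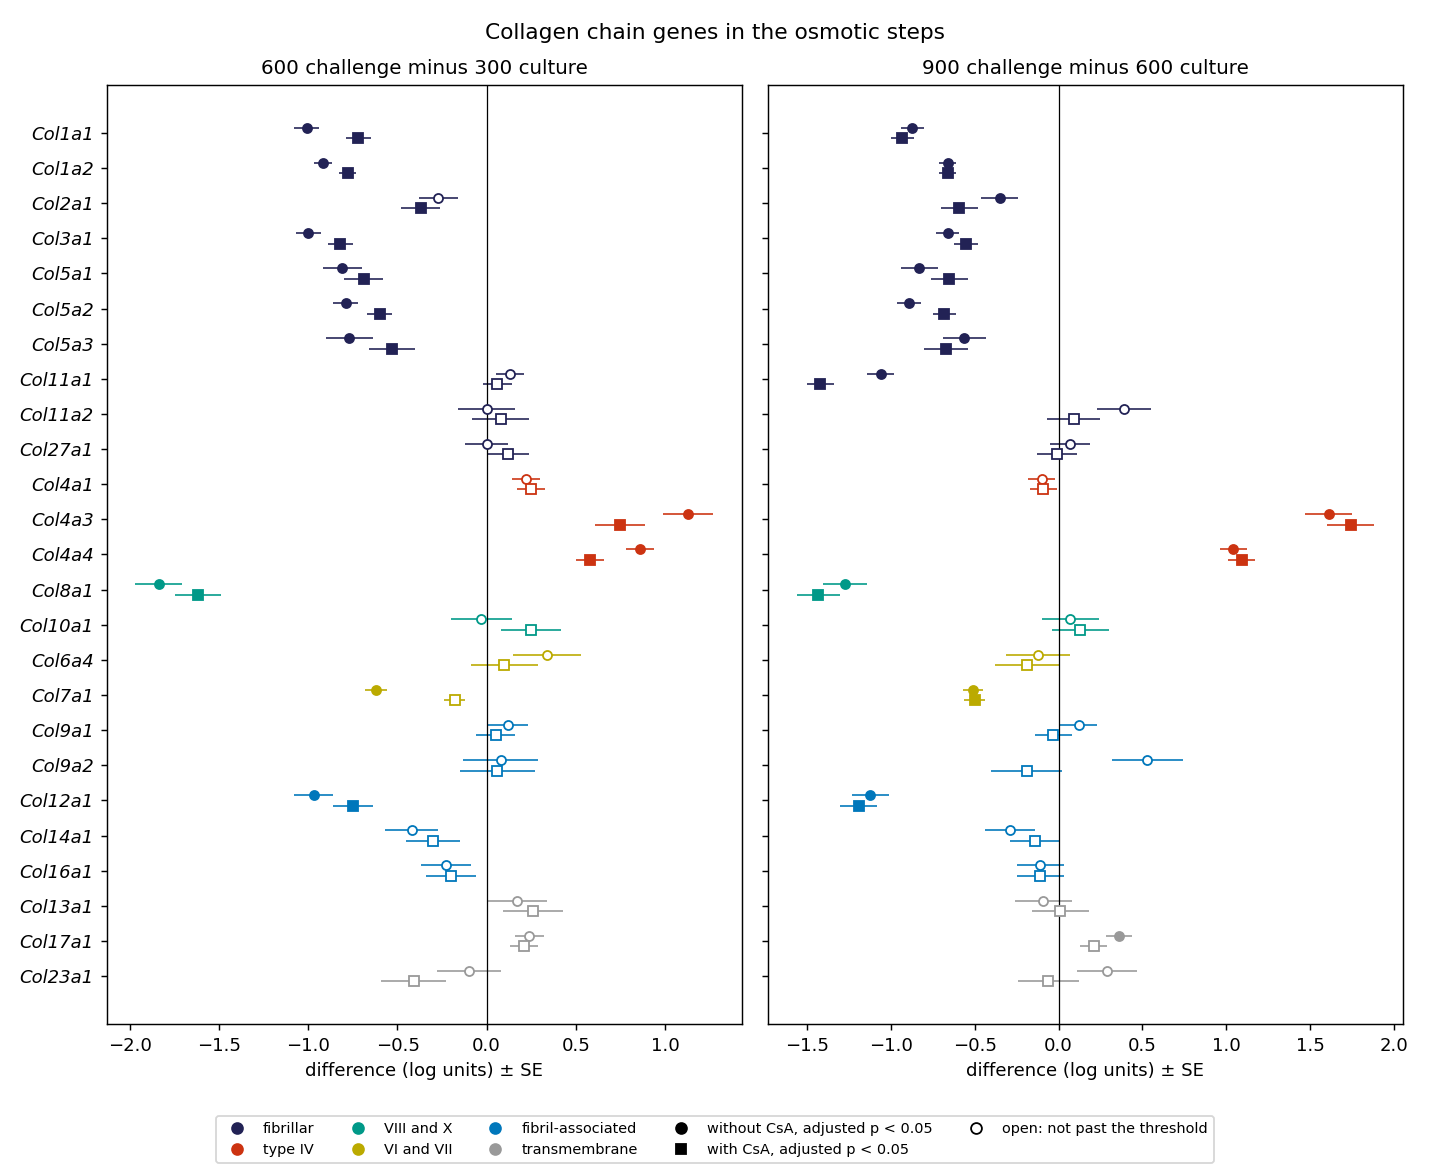
Difference (log units ± SE) of all 25 collagen chain genes in the step from 300 to 600 (left) and from 600 to 900 mosmol/kg (right), without cyclosporin A (circles) and with it (squares), coloured by class, filled where the adjusted p is under 0.05. The type I, III and V genes, Col8a1, Col7a1 and Col12a1 lie left of 0 and Col4a3 and Col4a4 right of 0 in both steps, and Col11a1 is at 0.13 in the first step and -1.06 in the second without the drug.

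The steps with cyclosporin A, which the series text names as comparisons of their own, gave the following counts. Against the 300 culture, 9 members were lower and 2 higher in the 600 challenge with the drug (7.85% and 6.21% of all features), with a median of -0.18 against 0.026 over all features. Against the 600 culture, 11 were lower and 2 higher in the 900 challenge with the drug (10.5% and 7.27% of all features), with medians of -0.19 and -0.024. In the first step the call of Col4a3 was lost in a fit of the compared groups alone (adjusted p = 0.0819). So was that of Col2a1 (adjusted p = 0.0599), which also failed in 5 of 6 fits without 1 array (adjusted p up to 0.123). Col5a3 lost its first call without array 3 of the 300 culture (adjusted p = 0.0531). Its second was lost in the compared groups alone (adjusted p = 0.0587). These comparisons share their culture arrays with the steps without the drug, so only each one's own values are set side by side. Col1a1 was -1.01 without and -0.72 with the drug in the first step, and -0.87 and -0.93 in the second. Col8a1 was -1.84 and -1.62, then -1.27 and -1.43. Col4a3 was 1.13 and 0.75, then 1.61 and 1.74. Col11a1 was 0.13 and 0.06, then -1.06 and -1.42. The fibrillar median was -0.56 in the first step with the drug and -0.66 in the second.

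The direct comparison of drug and no drug within each challenge gave few calls. In the 600 challenge 1 of 25 members passed, where 0.409% of all features did. Col7a1 was 0.44 ± 0.06 higher with the drug (1.36-fold with base 2, 1.56-fold with the natural logarithm; adjusted p = 0.00538), which was lost in a fit of these 2 groups alone (adjusted p = 0.283). With it the first step of Col7a1 was -0.18 ± 0.06 (adjusted p = 0.0673). In the 900 challenge 0 of 25 members passed in limma, where 0.505% of features did. In that challenge 4 members had an unadjusted limma p under 0.05, as did 2990 of all 28328 features. Col7a1 differed there by 0.01 ± 0.06, and the difference between its drug effects was -0.43 ± 0.09 (adjusted p = 0.145).

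Other drug differences did not pass. In the 600 challenge Col1a1 was 0.29 ± 0.07 higher (adjusted p = 0.131) and Col4a4 was lower, with a difference of -0.27 ± 0.08 (adjusted p = 0.259), and neither gene's drug arrays overlapped those without the drug. In the 900 challenge Col11a1 differed by -0.36 ± 0.08 without overlap (adjusted p = 0.0802). Averaged over both challenges, Col7a1 alone passed, at 0.23 ± 0.04 (limma, adjusted p = 0.0227), where 1.14% of all features did. It failed in 8 of 12 fits without 1 array, with adjusted p from 0.0104 to 0.0624. The call was also lost in a fit of the compared groups alone (adjusted p = 0.0909) and under a trended robust prior (adjusted p = 0.0922). Col5a2 averaged 0.2 ± 0.05 (adjusted p = 0.0822). The drug effects themselves differed between the challenges for 0 of 25 members in limma, where 0.0459% of features did. For that contrast 6 members had an unadjusted limma p under 0.05, as did 2150 of all 28328 features.

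The cultures grown at 600 and at 300 mosmol/kg were also compared with each other. Of the 25 members 9 were lower and 2 higher in the 600 culture, against 8.84% and 8.33% of all features, with medians of -0.16 and 0.002. The higher genes were Col4a3 and Col4a4, and the lower ones included Col11a1 (-0.92 ± 0.08, adjusted p = 9.91e-07), Col5a1 (-0.62 ± 0.11, adjusted p = 0.000696), Col17a1 (-0.52 ± 0.08, adjusted p = 0.00032) and Col12a1 (-0.5 ± 0.11, adjusted p = 0.00611). The type I genes had smaller differences, -0.31 ± 0.07 for Col1a1 (adjusted p = 0.00785) and -0.26 ± 0.05 for Col1a2 (adjusted p = 0.00223), and in a fit of the 2 cultures alone their adjusted p were 0.054 and 0.0502. Of the other 3 genes called lower, Col7a1 was at -0.22 (lost in 3 of 6 fits without 1 array, adjusted p up to 0.0981), Col14a1, mostly under the lower quartile, was at -0.5 (lost in 4 of 6, adjusted p up to 0.106), and Col4a1 is given above. In the same comparison 9 of 14 principal cell markers rose and 2 fell, and 6 of 13 fibroblast markers fell and 1 rose. Of the other lists, 3 of 7 smooth muscle and 10 of 11 leukocyte markers fell, and 4 of 9 endothelial markers rose and 3 fell. The part of these cells in the collagen differences was not tested.

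At the same final 600 mosmol/kg, the 24 h challenge and the 600 culture differed for 13 members, 10 lower and 3 higher in the challenge, where 8.74% of features were lower and 7.69% higher (medians -0.15 and 0.015). The challenge was lower in Col8a1 (-1.74 ± 0.13, adjusted p = 1.53e-07), Col3a1 (-1.15 ± 0.07, adjusted p = 2.33e-08), Col4a4 (-1.1 ± 0.08, adjusted p = 2.16e-07), Col4a3 (-0.88 ± 0.14, adjusted p = 0.000475) and Col1a1 (-0.71 ± 0.07, adjusted p = 5.85e-06). It was higher in Col11a1 (1.05 ± 0.08, adjusted p = 2.93e-07), Col17a1 (0.76 ± 0.08, adjusted p = 9.75e-06) and Col4a1 (0.55 ± 0.08, adjusted p = 0.000206). Col5a1 did not pass the test, at -0.18 ± 0.11 (95% interval -0.42 to 0.05, adjusted p = 0.319). Col8a1, Col3a1 and the type I genes were thus low after 24 h at 600 and high in the 600 culture, whereas Col4a3 and Col4a4 stood between their 300 and 600 culture levels after 24 h. In the same comparison 10 of 14 principal cell markers were lower and none higher (median -0.52), 6 of 7 smooth muscle markers were lower and 1 higher (median -0.68), 6 of 9 endothelial markers were lower, 5 of 13 fibroblast markers were lower and 2 higher, and 4 of 11 leukocyte markers were lower and 2 higher, and their part in the collagen differences was not tested. This comparison uses arrays of both comparisons with the 300 culture, so its values are not independent of them.

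The 2 steps without the drug share no array. Across the 25 members their differences had a Pearson r of 0.85, with the same sign in 17, and across the 13 members above the lower quartile on all arrays an r of 0.8 with the same sign in 11. Over all features r was 0.43. Genes are not independent replicates, and these values describe the list without a test.

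**Figure D3:**
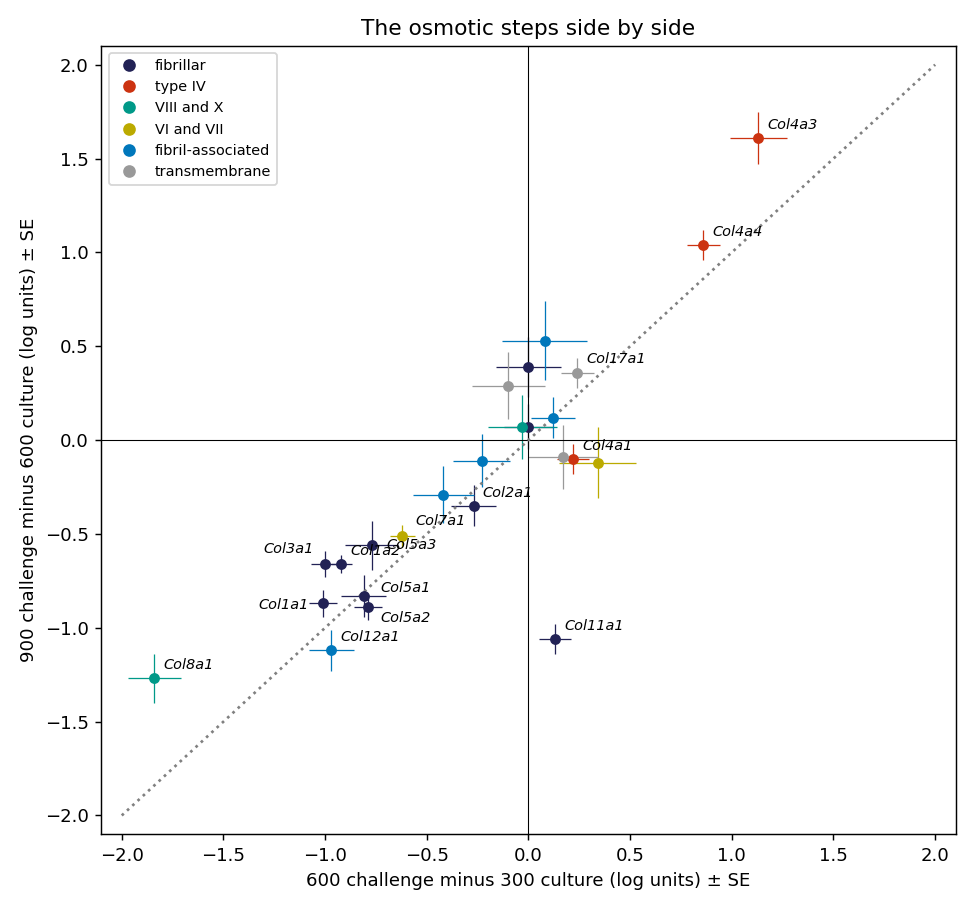
Difference of each of the 25 collagen chain genes in the step from 300 to 600 (horizontal) against the step from 600 to 900 mosmol/kg (vertical), in log units with SE bars, coloured by class, with a dotted line of equality. Most labelled genes lie near the line, and Col11a1 lies far below it at 0.13 and -1.06.

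Collagens depend on enzymes and chaperones of the endoplasmic reticulum, of which 19 of 22 listed genes were measured. The shares of all features called lower and higher, against which this and the next 3 lists can be read, were 8.07% and 6.36% in the first step, 11% and 6.43% in the second, and 8.84% and 8.33% for the cultures (14.4%, 17.4% and 17.2% in either direction). In the first step 12 were lower and 1 higher (median -0.26), in the second 6 were lower and 3 higher (median -0.07), and in the 600 culture against the 300 culture 14 were lower and 1 higher (median -0.32). In a fit of the compared groups alone 7 were lower and 1 higher in the first step. P3h2, a prolyl 3-hydroxylase that acts on type IV collagen, was the gene that rose in all 3. It went from a mean of 4.7 in the 300 culture to 5.87 in the 600 challenge (1.17 ± 0.06, adjusted p = 2.09e-08), and from 6.37 in the 600 culture to 6.96 in the 900 challenge (0.6 ± 0.06, adjusted p = 1.11e-05). The order of its 4 group means was that of Col4a3 and Col4a4.

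Other genes of this list fell in one or both steps. P4ha3, a subunit of prolyl 4-hydroxylase, fell by 0.67 ± 0.1 and 0.56 ± 0.1 in the 2 steps (adjusted p = 0.000264 and 0.00108). Serpinh1, the collagen chaperone HSP47, fell by 0.19 ± 0.04 and 0.45 ± 0.04 (adjusted p = 0.00955, lost at 0.0721 in a fit of the compared groups alone, and 6.33e-06). Creb3l1, a membrane-bound transcription factor known from mice to activate a type I collagen gene in bone, fell by 0.47 ± 0.08 and 0.99 ± 0.08 (adjusted p = 0.000583 and 5.42e-07) and was 1.33 below the 300 culture in the 600 culture (difference -1.33 ± 0.08, adjusted p = 1.01e-08). Fkbp10, a collagen prolyl isomerase, fell by 0.61 ± 0.08 in the first step (adjusted p = 0.000141) and was -0.24 in the second without passing. Cyclosporin A binds cyclophilin B, the product of Ppib and a prolyl isomerase of this compartment. Ppib averaged 0.14 ± 0.03 higher with the drug (adjusted p = 0.0383), and was 0.15 and 0.13 higher in the single challenges without passing (adjusted p = 0.208 and 0.251). P4hb, the disulfide isomerase subunit of prolyl 4-hydroxylase, was 0.21 ± 0.04 higher with the drug in the 600 challenge (adjusted p = 0.0488). In fits of the compared groups alone these drug calls were lost, with adjusted p = 0.154 for Ppib and 0.479 for P4hb, and without any 1 of its 6 arrays P4hb was lost too (adjusted p 0.102 to 0.185). Ppib was lost in 10 of 12 fits without 1 array (adjusted p up to 0.099).

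Of the genes that trim and cross-link secreted collagen, 13 of 15 were measured. In the first step 9 fell and 1 rose (median -0.46), and in the second 11 fell and 1 rose (median -0.48). Adamts2, counted lower in both, lost its first call under a trended robust prior (adjusted p = 0.0759) and in fits without 1 array (up to 0.134). Its second call was lost in a fit of the compared groups alone (adjusted p = 0.1) and in fits without 1 array (up to 0.164). Pcolce, which enhances removal of the C-terminal propeptide, fell by 1.18 ± 0.11 (adjusted p = 4.22e-06) and by 0.89 ± 0.11 (adjusted p = 5.08e-05). Adamts3, a protease that removes the N-terminal propeptide, fell by 0.46 ± 0.12 and 0.94 ± 0.12 (adjusted p = 0.0201 and 7.5e-05), and the first call was lost without array 2 or 3 of the 300 culture or array 1 or 3 of the 600 challenge (adjusted p = 0.0552, 0.0602, 0.0798 and 0.0615). The lysyl oxidase family, which starts cross-linking, was not uniform. Loxl3 fell mainly in the first step (-1.16 ± 0.08, then -0.33 ± 0.08; adjusted p = 2.91e-07 and 0.0129), Loxl1 passed in the second (-1.24 ± 0.13, adjusted p = 9.39e-06), and Loxl4 rose in both (0.5 ± 0.09 and 1.5 ± 0.09, adjusted p = 0.00106 and 3.59e-08). Tgm2, a transglutaminase, fell by 1.17 ± 0.06 in the first step and by 0.25 ± 0.06 in the second (adjusted p = 2.29e-08 and 0.0146). The second-step calls of Loxl3 and Tgm2 were lost in fits of the compared groups alone (adjusted p = 0.0609 and 0.0754), that of Loxl3 also without array 2 of the 600 culture (adjusted p = 0.0693), and that of Tgm2 without array 1 or 3 of that group (adjusted p = 0.0658 and 0.0507). Bmp1, the C-propeptide protease, did not pass in the first step at -0.05 and fell by 0.79 ± 0.07 in the second (adjusted p = 2.06e-06).

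Of 10 collagen receptors 9 were measured, and 2 fell and 1 rose in the first step and 5 fell in the second (2 in a fit of these groups alone). Itga11, the integrin subunit for fibrillar collagen on mesenchymal cells, fell by 1.87 ± 0.14 from a mean of 4.91 to 3.04 in the first step (adjusted p = 3.63e-07) and by 1.17 ± 0.14 from 3.92 to 2.74 in the second (adjusted p = 3.01e-05). Mrc2, an endocytic receptor that clears collagen, fell by 1.13 ± 0.17 and 0.75 ± 0.17 (adjusted p = 0.000261 and 0.00534, the latter lost at 0.0681 in a fit of the compared groups alone). Itga1, a subunit of an integrin that binds type IV collagen, rose by 0.38 ± 0.06 in the first step and fell by 0.45 ± 0.06 in the second (adjusted p = 0.000759 and 0.000133). Ddr2, a receptor tyrosine kinase for fibrillar collagen, was 1.25 lower in the 600 than in the 300 culture (difference -1.25 ± 0.08, adjusted p = 2.35e-08) and 0.47 ± 0.08 higher with cyclosporin A in the 900 challenge (adjusted p = 0.0179). That drug call was lost in a fit of these 2 groups alone (adjusted p = 0.305) and without array 1 or 3 of either group (adjusted p 0.0768 to 0.0883).

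Other proteins of the basement membrane had 10 of 16 genes measured, and 3 rose and none fell in the first step (median 0.21), while 2 rose and 1 fell in the second (median -0.01). Lamb3, a laminin chain of epithelial basement membranes, rose by 0.5 ± 0.06 in the first step (adjusted p = 5.62e-05), and Agrn, the proteoglycan agrin, by 0.36 ± 0.06 (adjusted p = 0.000907). Nid2, which links laminin to type IV collagen, rose by 0.4 ± 0.04 and 0.28 ± 0.04 in the 2 steps (adjusted p = 1.05e-05 and 0.000237) and was lower in the 600 than in the 300 culture (-0.38 ± 0.04, adjusted p = 9.45e-06). Pxdn, the peroxidase that forms sulfilimine cross-links in type IV collagen, fell by 1.14 ± 0.11 in the second step (adjusted p = 5.16e-06). These partners did not share one pattern with Col4a3 and Col4a4.

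**Figure D4:**
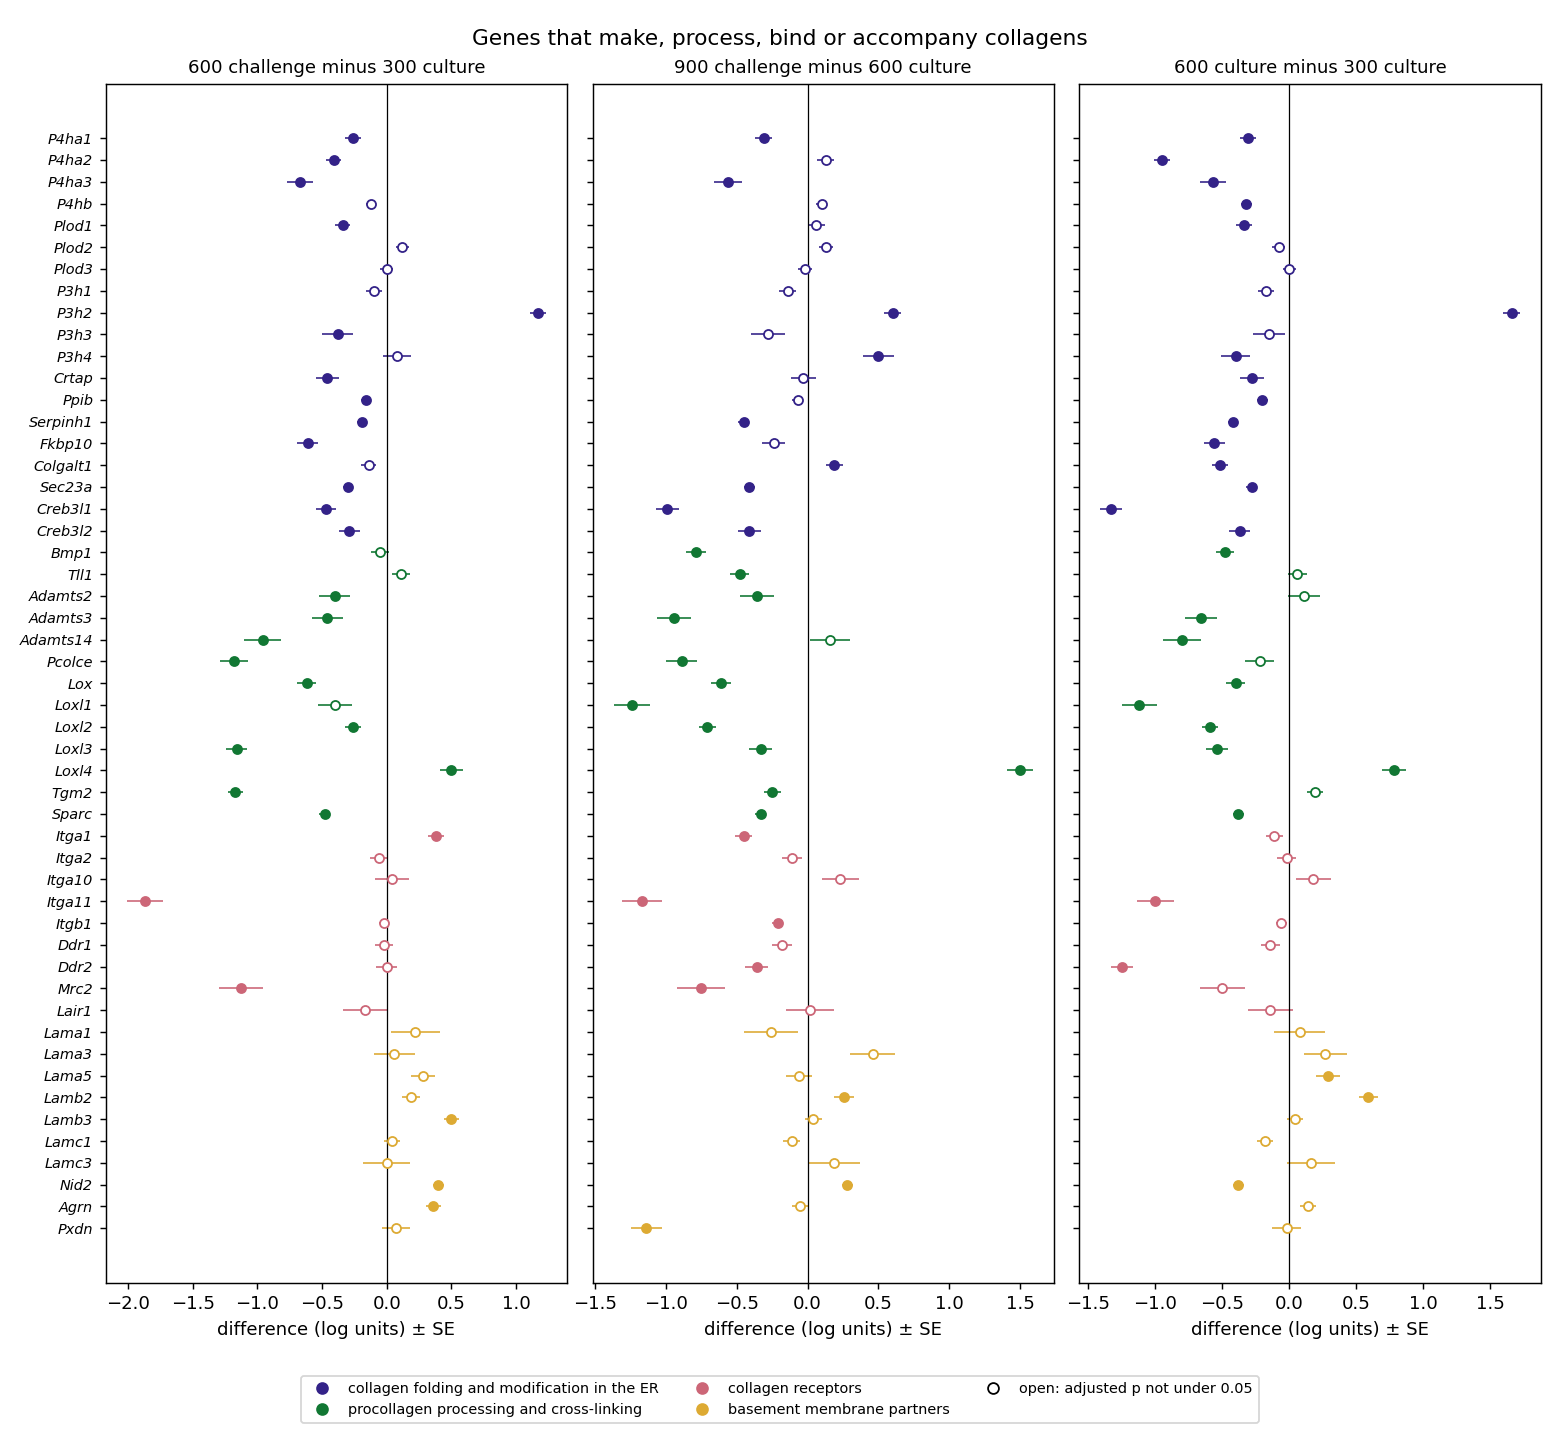
Difference (log units ± SE) of 51 genes that fold, process, bind or accompany collagens in the step from 300 to 600, the step from 600 to 900 and the 600 culture against the 300 culture, filled where the adjusted p is under 0.05. P3h2 and Loxl4 lie right of 0 in all 3 panels, and most folding and cross-linking genes lie left of it.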

How the data were processed

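The authors deposited log-scale values, 1 per array feature, whose base and normalization are not given in the sources used here. Per the labels' protocols, total RNA was extracted with a Qiagen kit and biotin-labelled with Affymetrix whole-transcript reagents. Signal over background is not given, so the number of arrays limits the precision. Symbols came from the platform's probe table (15295 features with 1 symbol), and 25 of 25 members matched RefSeq (GRCr8) by Entrez identifier. The test had been planned for log2 values. It was applied unchanged, because p-values do not depend on the base.

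All 28328 features were fitted with limma 3.58.1 in R 4.3.3 as 6 group means on 18 arrays, with 11 contrasts (4 from the series text), moderated variances (14.03 degrees of freedom), two-sided tests and Benjamini-Hochberg adjustment over all features at 0.05. The script was tested on simulated data. No batch is named in the labels, and no 2 arrays were identical (highest correlation 0.987). Values per array are given for members called in a comparison of the series text with a difference of at least 0.5 log units. They are also given for the member of each class with the highest mean. Of each partner list, up to 4 of the largest calls in each direction were eligible, and Ppib, Serpinh1 and P4hb. Adamts2 is named besides for its lost calls. The members and lists were chosen with earlier results of these data known. Alternatives were centred medians, quantile normalization, dim features left out, the compared groups alone, a trended robust prior, a replicate block, the mean over a gene's features, and each array left out, and they were extended to the partner lists after seeing the data.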

Additional observations from a re-analysis of the deposited data

Results flagged for a closer look

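Groups of 3 arrays are too small for a check of single outlying arrays, so none was made. The osmotic step differed between the 300 and the 600 culture, by a limma contrast of the steps, for 3 of the 25 members. Of all features, 7.58% did. The contrast (second step minus first) was 0.26 for Col1a2 and 0.35 for Col3a1, which fell in both steps and less in the second. For Col11a1 it was -1.19, with no passing change in the first step and a fall in the second. Without 1 array, the call was lost in 10 of 12 fits for Col1a2, in 9 of 12 for Col3a1 and in 0 of 12 for Col11a1.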

How the results depend on the processing

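No called difference of a collagen member changed direction under any alternative. Of 825 values recomputed under other normalizations, filters and fits, 783 kept their side of the threshold, 19 lost the call and 23 gained it, and of 810 with an array left out, 752 kept it, 53 lost it and 5 gained it. Of 1351 partner values called, 83 lost the call under other normalizations, filters and fits. With an array left out, 189 of 1314 called partner values lost it. With dim features left out, 16 members and 21246 features remained and the member medians were larger: -0.7 and -0.61 for the first and second step, -0.45 and -0.62 with cyclosporin A, -0.24 for the cultures and -0.44 for the 600 challenge against the 600 culture. That filter removed members near the lower quartile. It also gave 1 call for the drug at 900 and 2 for its average. Quantile normalization gave 1 call for the drug at 900. In fits of the compared groups alone, with fewer arrays behind the spread, the drug at 600 and its average had 0 calls (limma) and the contrast of steps 1. A trended robust prior gave 2, 1 and 2 drug calls (600, 900, average) and 5 for the contrast of steps, and the cause was not tested. Col7a1 was not among its calls for the average.

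Leaving out 1 array gave 11 to 12 members called in the first step, 9 to 11 with the drug, 13 in the second step with or without the drug (14 without the drug with all arrays), 9 to 11 for the cultures, 11 to 13 for the 600 challenge against the 600 culture, 0 to 1 for the average drug effect and 1 to 3 for the contrast of steps. The member medians then ran from -0.26 to -0.02 and from -0.28 to -0.12 in the steps, from -0.2 to -0.13 and from -0.3 to -0.14 with the drug, from -0.09 to 0.03 for the drug at 900 and from -0.15 to -0.05 for the difference of drug effects. Array numbers were taken from the sample titles (the source names of the third arrays of both 900 groups give another number). Over 45 same-number pairs of arrays the correlation of deviations was -0.13 to 0.11 (median 0.01), with 1 over 0.1. No shared effect of the number was thus visible, which does not show that the arrays were unpaired. With the replicate number as a block, 12 members were called in the first step, 13 with the drug, 14 and 14 in the second, 12 for the cultures and 2 for the contrast of steps, where Col1a2 was lost (adjusted p = 0.0605). Precision is limited by 3 arrays a group and by unknown signal over background: 12 of 25 members were not above the lower quartile on every array.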
